A study of Mus musculus with 12 samples.

Results

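The EGF receptor ligands and their receptors are a small family of growth factor genes, and 10 of them were followed in mouse ear skin after injection of IL-17A, IL-36γ or both cytokines. They are the ligand genes Hbegf, Areg, Ereg, Epgn, Tgfa, Btc and Egf and the receptor genes Egfr, Erbb2 and Erbb3. They were chosen by symbol, and each symbol matched a single Ensembl row among the 50684 genes counted. All 10 passed the filter on low counts, which left 19408 genes to test. The mice were 8-week-old female C57BL/6 animals. Their ears were injected intradermally with PBS, IL-17A, IL-36γ or IL-17A + IL-36γ (1 µg per cytokine in 5 µl). Ear tissue was taken after 4 days of consecutive treatment. Each group of the study held 5 mice, 3 of them were sequenced as separate libraries, and the labels state no genetic change in any animal. Ear tissue holds epidermis together with dermis, cartilage, muscle, fat and blood cells, so each value is a mean over these tissues. In such tissue, fewer cells of a type and less RNA per cell cannot be told apart.

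The 7 ligands are made as membrane proteins and are released at the cell surface by proteases of the ADAM family. They bind EGFR, which pairs with itself or with ERBB2 or ERBB3 and signals through the RAS, ERK and AKT pathways to growth, migration and survival. In skin, keratinocytes make most of these ligands and also carry the receptors. ERBB2 has no known ligand of its own, and ERBB3 has little kinase activity and binds neuregulins.

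The libraries held between 25293468 and 34759293 counts assigned to genes. Levels are given as CPM, counts scaled to a common library size by TMM, with the SD over 3 mice. A gene is said here to rise or fall where the adjusted p-value of edgeR's quasi-likelihood test over all tested genes was below 0.05, and is called where the absolute log2 fold change was also above 1. A group is said to lie apart from another where no library of one reached the range of the other. Keratin and other markers of epidermis were present in every library, and the summed level of 6 basal keratinocyte markers ranged from 9506 to 11424 CPM after PBS and from 16184 to 20108 CPM after both cytokines. Of these 6 markers, Krt5 and Krt14 rose after the combination and Krt15 (from a mean of 1243 to 548 CPM) and Col17a1 (from 1193 to 891 CPM) fell, which are named after their values were seen. PBS replicate 1 stood apart in muscle, with 176 CPM over 6 skeletal muscle markers against 1666 and 1991 CPM in the other PBS libraries. The sum was also low after the combination (101 to 727 CPM), against 1276 to 1691 CPM after IL-17A and 607 to 1288 CPM after IL-36γ. After the combination 0 of these 6 markers passed against PBS and 3 fell against IL-17A. Leaving out PBS replicate 1 removed no rise or fall of the 10 genes, and without it Egf also fell after each single cytokine and Erbb3 also rose after IL-17A.

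The family split into genes that rose and genes that fell. Against PBS, the combination raised 5 of the 10 genes (Hbegf, Areg, Epgn, Tgfa and Erbb3) and lowered 4 (Ereg, Btc, Egf and Egfr), and Erbb2 did not pass the test. Of all tested genes, 23.7% rose and 20.9% fell in this comparison, so that many genes moved. With the fold change threshold, 3 members were called higher (Hbegf, Areg and Epgn) and 2 lower (Ereg and Btc), where 7.35% of all tested genes were called higher and 6.06% lower. IL-36γ alone raised 4 members (Hbegf, Areg, Tgfa and Erbb3) and lowered 2 (Ereg and Btc), where 17.3% of all tested genes rose and 11.1% fell. Of these members, Hbegf and Areg were called higher and Ereg and Btc lower, where 5.11% of all tested genes were called higher and 1.98% lower. After IL-17A alone, Hbegf and Epgn rose and Epgn was called, where 7.44% of all tested genes rose and 1.07% were called higher. No member fell after IL-17A at the adjusted p-value of edgeR or DESeq2, where 3.49% of all tested genes fell by edgeR. Btc was the 1 member lower at an unadjusted p-value of edgeR below 0.05. These comparisons share the PBS libraries.

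**Figure D1:**
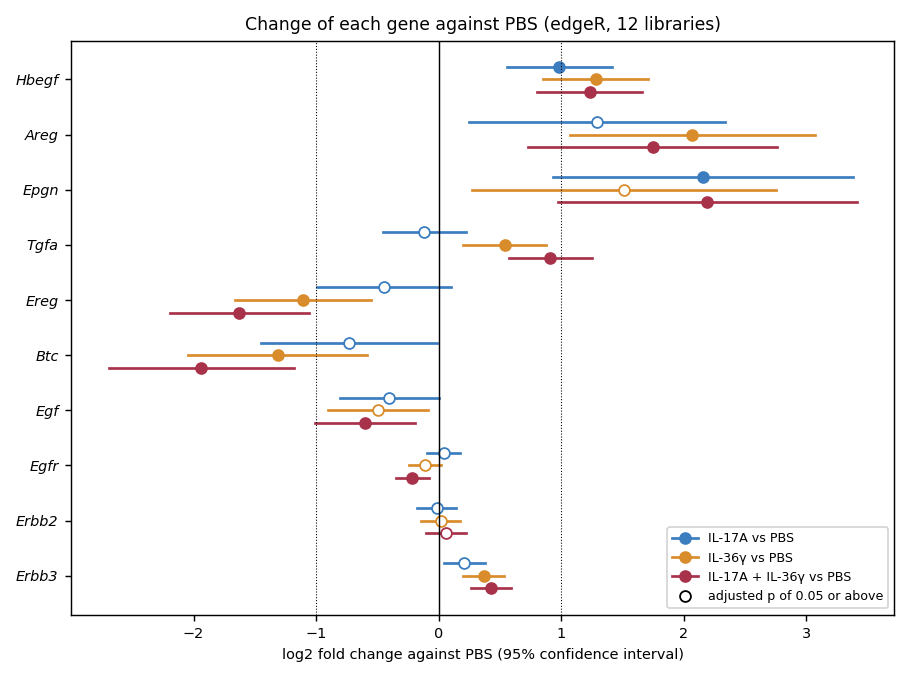
Log2 fold change of each gene against PBS on the horizontal axis, with 95% confidence intervals from edgeR, for IL-17A (blue), IL-36γ (orange) and the combination (red). Filled points passed an adjusted p-value of 0.05 and dotted lines mark a log2 fold change of 1 in each direction. Hbegf, Areg and Epgn lie to the right in all 3 comparisons, Ereg, Btc and Egf lie to the left, and the receptors lie between -0.22 and 0.43.

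A group of 4 ligand genes lie next to each other. Epgn, Ereg, Areg and Btc occupy 375.5 kb of chromosome 5 in the GRCm38 annotation (chr5:91027464-91402994), and they are the only 4 protein-coding genes annotated there. Epgn (chr5:91027464-91035215), Ereg (chr5:91074622-91093646) and Areg (chr5:91139599-91148432) are on the plus strand, and Btc (chr5:91357261-91402994) is on the minus strand. Ereg, which fell after the combination, lies between Epgn and Areg, which rose.

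The sequences before the starts of 3 of the 4 clustered genes are shown because these neighbours moved in opposite directions. They are from RefSeq for GRCm38.p6, read 5′ to 3′ on the strand of each gene, and end at the base before the gene start of the GRCm38 annotation. They cover chr5:91139349-91139598 for Areg (plus strand), chr5:91027267-91027463 for Epgn (plus strand) and chr5:91402995-91403244 for Btc (minus strand). Capitals mark matches to the letters searched.
Areg: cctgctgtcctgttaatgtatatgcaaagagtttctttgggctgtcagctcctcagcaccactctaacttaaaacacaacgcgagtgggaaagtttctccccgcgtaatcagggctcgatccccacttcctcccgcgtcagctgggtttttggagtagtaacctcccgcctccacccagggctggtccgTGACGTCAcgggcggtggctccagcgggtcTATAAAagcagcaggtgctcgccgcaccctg
Epgn: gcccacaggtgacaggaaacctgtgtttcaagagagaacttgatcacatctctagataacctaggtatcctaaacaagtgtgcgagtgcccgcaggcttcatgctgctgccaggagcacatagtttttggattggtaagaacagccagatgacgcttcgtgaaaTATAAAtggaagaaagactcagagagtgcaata
Btc: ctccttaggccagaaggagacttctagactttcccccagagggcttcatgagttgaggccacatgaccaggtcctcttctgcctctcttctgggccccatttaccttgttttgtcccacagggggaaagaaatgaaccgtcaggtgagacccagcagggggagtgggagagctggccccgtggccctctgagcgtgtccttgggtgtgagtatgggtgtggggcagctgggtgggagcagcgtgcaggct

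The 250 bases before the RefSeq start were searched on both strands for 5 motifs in 7 members. For Epgn and Erbb2 the GRCm38 annotation starts the gene upstream of the RefSeq start, so only the first 197 and 236 of these bases were searched. These were the TATA box (TATAAA), the cAMP response element (TGACGTCA), the AP-1 site (TGANTCA), the C/EBP site (TTGCNNAA) and the NF-κB site. The Areg window held TGACGTCA, beginning 61 bases before the RefSeq start, and TATAAA, beginning 31 bases before it. Among 32851 windows of 250 bases in the RefSeq table, 1.55% held TGACGTCA and 12.37% held TATAAA. The Epgn window held TATAAA, beginning 86 bases before the RefSeq start of that gene and thus closer to the annotated start at which the printed sequence ends. The Egf window held TTGCTCAA, a match to the C/EBP letters, which 9.56% of windows held. The windows of Btc, Tgfa, Egfr and Erbb2 held none of the 5 motifs, and the AP-1 and NF-κB motifs, present in 6.75% and 4.11% of all windows, were in none of the 7. The windows of Hbegf, Ereg and Erbb3 were not analysed here.

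Among the ligands that rose, Hbegf, the heparin-binding ligand known for its role in wound closure, was higher than PBS in every treated library. It lies on chromosome 18. The PBS libraries had 11.8, 10.9 and 9.85 CPM and the IL-17A libraries had 18.0, 27.8 and 18.6 CPM. They were 28.2, 28.4 and 22.5 CPM after IL-36γ and 24.4, 19.8 and 32.3 CPM after the combination. All 3 treated groups lay apart from PBS and overlapped one another. Between these groups and PBS, 33.6% (IL-17A), 41.7% (IL-36γ) and 52.5% (combination) of all tested genes also lay apart. Against PBS, Hbegf rose by a log2 fold change of 0.99 (SE 0.20, edgeR adjusted p = 0.0193) after IL-17A, 1.28 (SE 0.20, adjusted p = 0.00089) after IL-36γ and 1.23 (SE 0.20, adjusted p = 0.000454) after the combination. The rise after IL-17A missed the adjusted p-value of 0.05 when PBS replicate 2, PBS replicate 3, IL-17A replicate 1 or IL-17A replicate 2 was left out, with adjusted p-values between 0.0512 and 0.101.

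Hbegf after both cytokines was no higher than after IL-36γ alone in its mean. The levels were 25.5 ± 6.31 CPM and 26.4 ± 3.33 CPM, and the log2 difference was -0.05 with a 95% interval from -0.47 to 0.37. The interaction subtracts the log2 change that IL-17A made alone from the one it made on top of IL-36γ. For Hbegf it was -1.03 on the log2 scale (SE 0.27, edgeR adjusted p = 0.0762). It missed the threshold in this fit and passed it with DESeq2 (adjusted p = 0.0198), without the filter on low counts (0.0385) and without PBS replicate 1 (0.046).

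Areg, the gene of amphiregulin, a ligand made by keratinocytes and by some lymphocytes, was among the least abundant members. It had 19, 25 and 21 counts after PBS (0.526, 0.708 and 0.637 CPM) and 65, 38 and 22 counts after IL-17A (2.44, 1.26 and 0.885 CPM). After IL-36γ it had 77, 67 and 96 counts (2.56, 2.04 and 3.31 CPM), and after the combination 45, 27 and 105 counts (1.76, 0.988 and 3.51 CPM). Every treated library exceeded every PBS library, and combination replicate 3 was the highest of the 12. Areg rose by a log2 fold change of 2.07 (SE 0.46, edgeR adjusted p = 0.00669) after IL-36γ and 1.75 (SE 0.47, adjusted p = 0.00998) after the combination. After IL-17A it was 1.29 (SE 0.48, adjusted p = 0.0933), which did not pass. Without combination replicate 3, the change by the combination was 1.14 with an adjusted p of 0.053.

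Markers of T cells moved in both directions. Foxp3, the master regulator of regulatory T cells, had 1, 3 and 4 counts after PBS, 6, 6 and 2 after IL-17A, 27, 15 and 18 after IL-36γ and 17, 20 and 38 after the combination, with the highest count in combination replicate 3. IL-17A replicate 1, where Areg had 65 counts, had 6 Foxp3 counts, more than any PBS library and fewer than any library with IL-36γ. Of the 5 T cell markers listed, Foxp3 and Trac rose and Trdc fell after IL-36γ and after the combination, and Cd3d and Cd3e did not pass. The summed level of these 5 markers was 15.4 to 17.8 CPM after PBS and 11.7 to 13.1 CPM after the combination. The part of these cells in the level of Areg was not tested.

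Epgn, the gene of epigen, a ligand of low receptor affinity, was as scarce as Areg in PBS ears. It had 21, 38 and 20 counts after PBS (0.581, 1.08 and 0.606 CPM) and 157, 92 and 29 counts after IL-17A (5.90, 3.06 and 1.17 CPM). It had 57, 99 and 45 counts after IL-36γ (1.90, 3.02 and 1.55 CPM) and 67, 58 and 168 after the combination (2.61, 2.12 and 5.62 CPM). All treated libraries lay above the PBS libraries, and IL-17A replicate 1 and combination replicate 3 were the highest. Epgn was the only member called after IL-17A alone, with a log2 fold change of 2.16 (SE 0.56, edgeR adjusted p = 0.036), and the combination gave 2.19 (SE 0.56, adjusted p = 0.00779). After IL-36γ it was 1.51 (SE 0.57, edgeR adjusted p = 0.0652). This change passed in 5 of 19 alternatives, with the lowest adjusted p in the edgeR fit of the 2 groups alone (0.0225). The difference between IL-36γ and IL-17A had a 95% interval from -1.76 to 0.47. Epgn lost its IL-17A call in the fit of the 2 groups alone (edgeR adjusted p = 0.0877). Epgn also lost that call when any of PBS replicates 2 and 3, IL-17A replicates 1 and 2 and IL-36γ replicate 1 was left out. In the fit without IL-17A replicate 1 its adjusted p was highest, at 0.172, with a log2 change of 1.46.

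Tgfa, the gene of TGF-α, a ligand of keratinocytes known to be raised in psoriasis, followed IL-36γ. It lies on chromosome 6. Its levels were 33.1, 31.7 and 30.6 CPM in the PBS libraries and 26.3, 28.8 and 33.1 CPM in the IL-17A libraries. They rose to 49.9, 48.8 and 39.8 CPM after IL-36γ and to 77.2, 48.1 and 54.5 CPM after the combination. The PBS and IL-17A libraries overlapped, and all libraries with IL-36γ lay above both of these groups. Between IL-17A and IL-36γ, 31.7% of all tested genes lay apart, and between IL-17A and the combination 48.4%. Against PBS, the log2 fold change was -0.12 (SE 0.16, edgeR adjusted p = 0.645) after IL-17A, 0.54 (SE 0.15, adjusted p = 0.023) after IL-36γ and 0.91 (SE 0.16, adjusted p = 0.00067) after the combination. The rise after IL-36γ alone missed the adjusted p-value of 0.05 in 4 of the 12 fits without a library, with adjusted p-values up to 0.101.

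Tgfa was also higher after the combination than after IL-17A alone. The log2 difference was 1.03 (SE 0.16, edgeR adjusted p = 0.000795), and Tgfa was the only member called higher in that comparison. By edgeR it was the only member that differed between IL-36γ and IL-17A, with a log2 difference of 0.65 (SE 0.16, adjusted p = 0.0278), where 7.98% of all tested genes differed by edgeR. DESeq2 also passed Egfr in this comparison (adjusted p = 0.00394), and Ereg passed in the fit of the 2 groups alone (0.0426). The Tgfa difference missed the threshold without IL-17A replicate 1, IL-17A replicate 2, IL-36γ replicate 1 or IL-36γ replicate 2, with adjusted p-values up to 0.111.

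Ereg, the gene of epiregulin, fell. The PBS libraries had 52.5, 59.4 and 58.5 CPM and the IL-17A libraries had 33.7, 54.0 and 37.0 CPM. They were 28.8, 24.9 and 25.5 CPM after IL-36γ and 17.8, 10.6 and 26.7 CPM after the combination. IL-17A replicate 2 reached the range of PBS, while every library with IL-36γ lay below every PBS and IL-17A library. Ereg changed against PBS by a log2 value of -0.45 (SE 0.25, edgeR adjusted p = 0.245) after IL-17A, -1.11 (SE 0.25, adjusted p = 0.00806) after IL-36γ and -1.63 (SE 0.26, adjusted p = 0.000454) after the combination. Against IL-17A alone, the combination was lower by a log2 difference of -1.18 (SE 0.26, adjusted p = 0.00527). An antisense gene, Gm19610, shares 141 bp (3.42%) of the exons of Ereg and had at most 30 counts in a library.

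Btc, the gene of betacellulin, followed the same order. Its levels were 17.7, 24.7 and 19.5 CPM in PBS ears, 6.54, 19.3 and 11.3 CPM with IL-17A, 9.45, 5.85 and 9.67 CPM after IL-36γ and 5.07, 4.02 and 7.06 CPM after the combination. As with Ereg, IL-17A replicate 2 was the only treated library within the range of PBS. Against PBS, Btc changed by a log2 value of -0.73 (SE 0.33, edgeR adjusted p = 0.153) after IL-17A, -1.31 (SE 0.34, adjusted p = 0.0138) after IL-36γ and -1.94 (SE 0.35, adjusted p = 0.000944) after the combination. The combination lay -1.20 (SE 0.35, adjusted p = 0.0204) from IL-17A on the log2 scale, with overlapping libraries. This last difference was -0.70 (adjusted p = 0.116) without IL-17A replicate 2 and also missed the threshold without combination replicate 1 (0.0655) or 2 (0.0813). The fall after IL-36γ missed it without IL-36γ replicate 2 (adjusted p = 0.0604).

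Egf, the gene of the ligand that names the family and lies on chromosome 3, was low in all groups. It had 4.68, 7.28 and 6.82 CPM in PBS ears, 4.06, 4.29 and 5.87 CPM with IL-17A, 4.43, 4.17 and 4.72 CPM after IL-36γ and 3.86, 3.91 and 4.58 CPM after the combination. The combination lay apart below PBS, and the single cytokines overlapped PBS through PBS replicate 1. Egf changed after the combination by a log2 value of -0.60 (SE 0.19, edgeR adjusted p = 0.0215), which missed the threshold without PBS replicate 2, PBS replicate 3, combination replicate 1 or combination replicate 2, with adjusted p-values up to 0.0949. The changes after IL-17A (-0.40, adjusted p = 0.164) and IL-36γ (-0.50, adjusted p = 0.0645) did not pass. The change after IL-36γ passed with DESeq2 (adjusted p = 0.0373), with scaling by library size (0.0311), with the replicate number as a block (0.0375) and without PBS replicate 1 (0.00919) or IL-17A replicate 3 (0.0499). Antisense genes share 607 and 500 bp of the exons of Egf and had at most 1 and 8 counts in a library.

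Tissue and cell markers were measured in the same libraries. The summed level of 5 hair follicle markers was 20.1 to 29.0 CPM after PBS and 6.87 to 14.3 CPM after the combination, and 1 of the 5 fell. All 4 adipocyte markers fell after the combination, from a sum of 65.3 to 90.6 CPM to a sum of 18.7 to 39.5 CPM. The summed level of 6 skeletal muscle markers was 176 to 1991 CPM after PBS and 101 to 727 CPM after the combination, and 0 of the 6 passed. Neutrophil markers, 7 genes, rose from 13.1 to 88.8 CPM to 7602 to 10030 CPM, and all 7 rose. The summed level of 4 stress keratins rose from 325 to 526 CPM to 6261 to 10593 CPM, and all 4 rose. The part of these shifts in the fall of Ereg, Btc and Egf and in the rise of the other ligands was not tested.

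**Figure D2:**
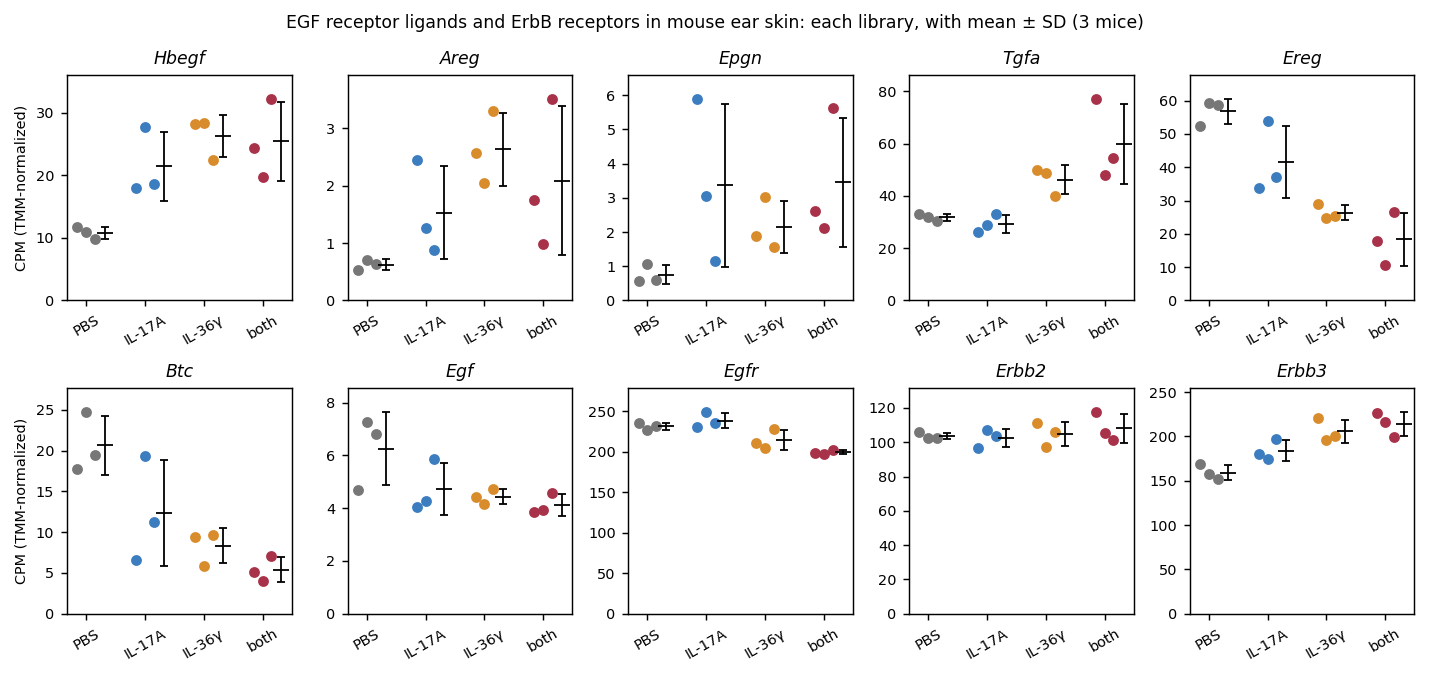
Level of each of the 10 genes in CPM (vertical axes, from 0, a scale for each gene) in the 3 libraries of each group, with the mean and SD beside them. "Both" stands for IL-17A + IL-36γ. Hbegf, Areg and Epgn lie above PBS in all treated libraries, Ereg and Btc fall to their lowest means after both cytokines, and the groups overlap for Erbb2.

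Because levels of different genes can be compared only per length, each ligand was also expressed as CPM per kb of exon and as a share of the sum of the 7 ligands. In PBS ears, Ereg made up 51.0% ± 1.78 (SD, n = 3) of the ligand transcripts, Tgfa 18.3% ± 1.67 and Btc 16.9% ± 1.85. Hbegf made up 8.36% ± 1.08, and Egf, Areg and Epgn made up 2.05%, 1.90% and 1.53%. Ereg was thus the most abundant ligand transcript of the PBS ear by this measure, at 13.8 ± 0.910 CPM per kb.

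After the combination the order changed. Tgfa came first with 39.2% ± 9.50, before Hbegf with 22.0% ± 2.04 and Ereg with 17.9% ± 3.61, and then came Epgn (7.66%), Areg (6.71%), Btc (4.94%) and Egf (1.57%). After IL-36γ alone the shares of Tgfa, Ereg and Hbegf were 28.9% ± 2.16, 26.0% ± 1.20 and 22.2% ± 1.95. After IL-17A alone Ereg was still first with 39.5% ± 3.68, ahead of Tgfa with 18.3% ± 4.24 and Hbegf with 17.4% ± 1.29. The share of Ereg in single libraries fell from 49.9% to 53.1% after PBS to 14.9% to 21.9% after the combination, and the groups did not overlap.

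The sum of the 7 ligands moved less than its parts. It was 27.0 ± 1.75 CPM per kb after PBS, 25.3 ± 4.63 with IL-17A alone, 24.6 ± 1.53 with IL-36γ alone and 24.1 ± 6.23 after the combination, with overlapping libraries. Shares and sums were not tested. Exon lengths were those of all annotated exons of a gene together, so that a change in isoforms would alter the shares.

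**Figure D3:**
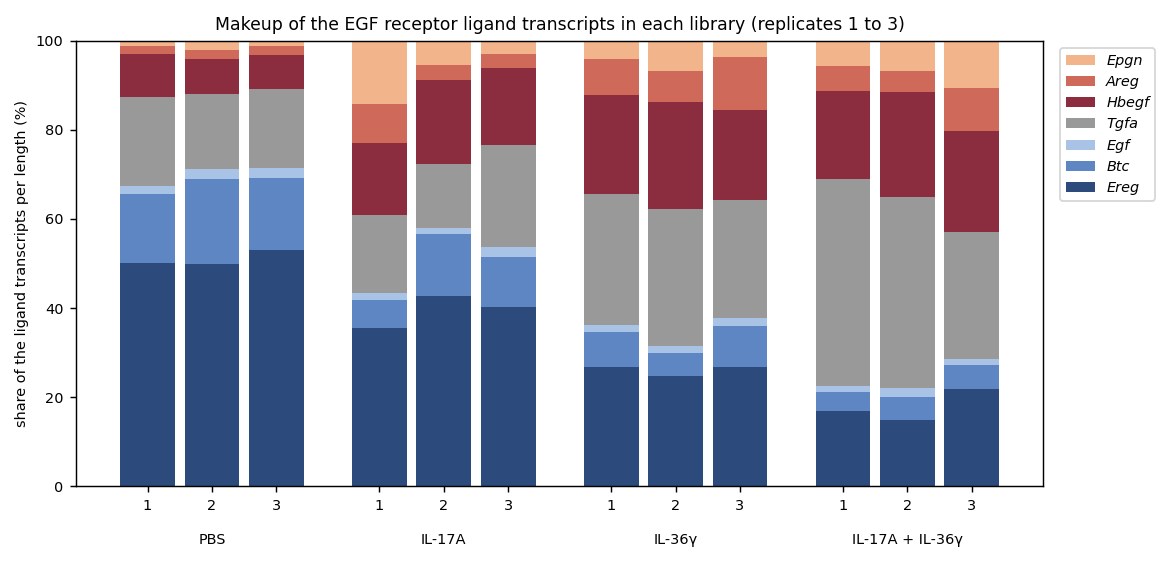
Share of each ligand (vertical axis, percent of the summed CPM per kb of the 7 ligands) in each of the 12 libraries, grouped by treatment. Blue shades mark Ereg, Btc and Egf, grey marks Tgfa, and red to orange shades mark Hbegf, Areg and Epgn. The blue part shrinks from PBS to the combination, and combination replicate 3 has the smallest share of Tgfa (28.5%) in its group.

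None of the 3 receptor genes was called against PBS. Erbb3, which forms with ERBB2 a strong signalling pair and lies on chromosome 10, rose. It had 169, 157 and 152 CPM in PBS ears, 180, 175 and 197 CPM with IL-17A, 220, 196 and 200 CPM after IL-36γ and 226, 217 and 199 CPM after the combination. All treated libraries lay above PBS. For Erbb3 the log2 fold change was 0.21 (SE 0.08, edgeR adjusted p = 0.0906) after IL-17A, 0.37 (SE 0.08, adjusted p = 0.0047) after IL-36γ and 0.43 (SE 0.08, adjusted p = 0.000935) after the combination. The change after IL-17A passed with DESeq2 (adjusted p = 0.0407). The combination lay 0.22 above IL-17A (adjusted p = 0.0457), and this difference missed the threshold in 7 of the 19 alternatives. All 5 Schwann cell markers, from cells that also carry ERBB3, fell after the combination. Their sum was 168 to 218 CPM after PBS and 105 to 137 CPM after the combination. The part of these cells in the level of Erbb3 was not tested.

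Egfr, the receptor of all 7 ligands, on chromosome 11, fell slightly. Its levels were 236, 227 and 231 CPM in PBS ears, 230, 249 and 235 CPM with IL-17A, 211, 204 and 228 CPM after IL-36γ and 199, 197 and 202 CPM after the combination. The combination libraries lay below every other library, also those of IL-36γ, from which 20.6% of all tested genes lay apart. Egfr changed after the combination by a log2 value of -0.22 (SE 0.06, edgeR adjusted p = 0.0139) against PBS and -0.26 (SE 0.06, adjusted p = 0.00818) against IL-17A. The fall against IL-17A had an adjusted p of 0.0624 without IL-17A replicate 2. After IL-17A the change was 0.04 (95% interval from -0.09 to 0.17) and after IL-36γ it was -0.11 (95% interval from -0.24 to 0.02). DESeq2 passed this last change (adjusted p = 0.0182), as did edgeR with scaling by library size (0.0195).

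Erbb2, the co-receptor without a ligand, had 106, 103 and 102 CPM in PBS ears, 96.6, 107 and 104 CPM with IL-17A, 111, 97.4 and 106 CPM after IL-36γ and 118, 105 and 101 CPM after the combination. All groups overlapped. Erbb2, also on chromosome 11, changed against PBS by log2 values of -0.02, 0.02 and 0.06 in the same order, and its 95% interval after the combination ran from -0.10 to 0.22. It was the only member that passed in none of the comparisons. Per length, Erbb3 had the highest level of the 3 receptors in PBS ears (26.5 ± 1.45 CPM per kb), before Egfr (20.4 ± 0.378) and Erbb2 (19.9 ± 0.359), and each exceeded each ligand.

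What each cytokine added to the other was asked in 2 further comparisons. Whether one changed the effect of the other was asked by the interaction alone. Adding IL-36γ to IL-17A raised Tgfa and Erbb3 and lowered Ereg, Btc and Egfr, where 15.1% of all tested genes rose and 17.7% fell. Of these, Tgfa was called higher and Ereg and Btc lower, where 4.46% of all tested genes were called higher and 4.49% lower. Adding IL-17A to IL-36γ gave no member at the adjusted p-value of edgeR or DESeq2. Of all tested genes, 0.0206% differed by edgeR. With the fold change threshold as well, edgeR called 2 of 19408 genes and DESeq2 called 115 of 19254. By edgeR, Tgfa alone had an unadjusted p below 0.05 (log2 difference 0.37, adjusted p = 0.282). In this comparison the intervals still allowed changes, from -1.38 to 0.14 for Btc and from -1.08 to 0.04 for Ereg on the log2 scale. No member passed the interaction test of edgeR, which 0.551% of all tested genes passed. At an unadjusted p below 0.05 the interaction was lower for Hbegf and Areg (-1.62, edgeR adjusted p = 0.167) and higher for Tgfa (0.49, adjusted p = 0.21), and DESeq2 called Hbegf.

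The order of the group means differed between members. For Ereg, Btc and Egf the order from low to high was combination, IL-36γ, IL-17A and PBS, and no neighbours in that order differed. For Erbb3 the order was the opposite, again with no difference between neighbours. For Hbegf the step from PBS to IL-17A passed (edgeR adjusted p = 0.0193) and the steps among the treated groups did not. For Tgfa the step from PBS to IL-36γ passed (adjusted p = 0.023), while IL-17A and PBS at the low end and IL-36γ and the combination at the high end did not differ.

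The remaining ligands and the remaining receptor of the ErbB family were taken as a list of 5 genes, Nrg1 to Nrg4 and Erbb4, of which 4 were tested. Nrg3 had at most 1 count in a library. Nrg1, a ligand of ERBB3 and ERBB4, had 1.85, 2.46 and 2.27 CPM after PBS and 9.13, 8.27 and 6.92 CPM after the combination. After the single cytokines it ranged from 1.89 to 3.83 CPM (IL-17A) and from 2.03 to 4.33 CPM (IL-36γ), so that all combination libraries lay above all others. Nrg1 rose after the combination by a log2 value of 1.88 (SE 0.29, edgeR adjusted p = 0.000399), and the single cytokines gave 0.25 and 0.55 without passing. Nrg2 fell after the combination (-1.01, SE 0.17, adjusted p = 0.000721), from 4.24 to 4.62 CPM to 2.16 to 2.27 CPM.

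Erbb4, the fourth receptor, was called lower after the combination (-1.99, SE 0.64, edgeR adjusted p = 0.0248), but PBS replicate 1 had 12 counts against 100 and 66 in the other PBS libraries. That library also had the lowest muscle markers of its group. After the combination Erbb4 had 8, 6 and 22 counts, in libraries with 181, 101 and 727 CPM over the 6 skeletal muscle markers. The part of muscle in the level of Erbb4 was not tested. The adjusted p reached 0.116 without PBS replicate 2, and the call was lost in 5 of 18 alternatives.

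Genes linked to the release of the ligands were a list of 7, the proteases Adam9, Adam10, Adam12 and Adam17 and the rhomboid proteins Rhbdf1, Rhbdf2 and Rhbdl2. After the combination 4 of 7 rose and 2 fell, where 23.7% of all tested genes rose and 20.9% fell. After IL-36γ 4 rose (17.3% of all tested genes) and after IL-17A 3 rose (7.44%), and the median log2 fold change after the combination was 0.30 against -0.03 over all tested genes. The 4 that rose after the combination were the 4 ADAM genes. Adam12, which can cut HB-EGF, was called after IL-17A (1.00, SE 0.23, edgeR adjusted p = 0.0264) and after the combination (1.69, adjusted p = 0.000174). Its range was 3.67 to 6.75 CPM after PBS and 12.8 to 17.5 CPM after the combination. Adam10 and Adam17, the main sheddases of the family and named after their values were seen, rose by less, from 86.2 ± 1.83 to 123 ± 4.50 CPM and from 122 ± 1.08 to 150.0 ± 3.12 CPM after the combination. The Adam12 change after IL-17A had an adjusted p of 0.134 without IL-17A replicate 1.

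Regulators of the receptors and of the ERK pathway, most of them known as inhibitors, were a list of 18. After the combination 2 of 18 rose and 7 fell, with a median of -0.11, where 23.7% of all tested genes rose and 20.9% fell. After IL-36γ 2 rose and 1 fell, and after IL-17A 1 rose, where 17.3% and 11.1% of all tested genes rose and fell after IL-36γ and 7.44% rose after IL-17A. None was called against PBS. Among the 7 were the Sprouty genes Spry1 (-0.66, edgeR adjusted p = 0.00384), Spry2 (-0.69, adjusted p = 0.000486) and Spry4 (-0.99, adjusted p = 0.00323), which encode feedback inhibitors of receptor signalling. Spry2 had 21.4, 24.1 and 21.6 CPM after PBS and 12.4, 13.6 and 15.5 CPM after the combination. The other 4 were Lrig1, Lrig3, Spred1 and Dusp4, with log2 fold changes of -0.38, -0.38, -0.35 and -0.67. The fall of Dusp4 passed in 13 of 19 alternatives, and its edgeR adjusted p was 0.128 without PBS replicate 1. The 2 that rose were Cbl and Dusp5. Cbl went from a mean of 85.9 CPM after PBS to 113 CPM after the combination, and Dusp5 from 9.29 to 14.1 CPM. All of these genes, falling and rising, were named after their values were seen. Of 20 signal transducers, 8 rose and 3 fell after the combination, again beside 23.7% and 20.9% of all tested genes, and none was called.

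Genes known to respond to ERK signalling were a list of 13, and 5 rose after IL-17A, 6 rose and 2 fell after IL-36γ, and 4 rose and 2 fell after the combination. The shares of all tested genes were 7.44% rising after IL-17A, 17.3% rising and 11.1% falling after IL-36γ, and 23.7% rising and 20.9% falling after the combination. Egr1, Fos and Junb were called after IL-17A, Fos and Junb after IL-36γ, and Fos and Plaur after the combination. Fos, part of AP-1, ranged from 19.9 to 27.5 CPM after PBS, from 56.6 to 247 CPM after IL-17A, from 142 to 164 CPM after IL-36γ and from 31.6 to 131 CPM after the combination. For Egr1, Fos and Junb the interaction was negative (edgeR adjusted p = 0.0429, 0.0498 and 0.0437), and Egr1 missed the threshold in 9, Fos in 12 and Junb in 10 of the 18 other fits. These genes are general responders and are induced by many signals. Plaur, the urokinase receptor, was called after the combination (1.03, adjusted p = 0.00322).

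**Figure D4:**
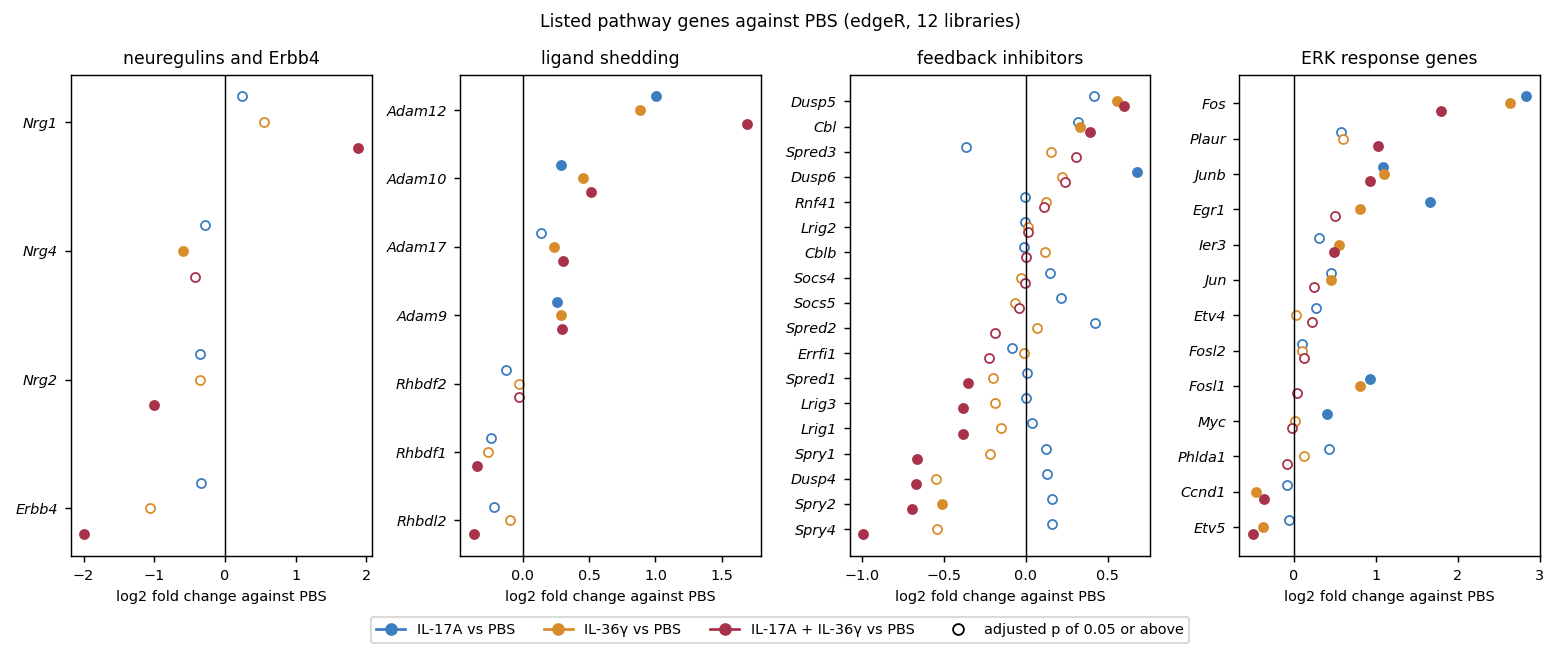
Log2 fold change against PBS (horizontal axes) of the listed neuregulins with Erbb4, shedding genes, genes listed as feedback inhibitors and ERK response genes, for IL-17A (blue), IL-36γ (orange) and the combination (red). Filled points passed an adjusted p-value of 0.05. Nrg1 and the ADAM genes lie to the right after the combination, and Spry1, Spry2 and Spry4 lie to the left.

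For each member the most similar genes over the 12 libraries were found by Pearson's r of log2 CPM, as a description of profiles that share the 4 groups. Hbegf was most like Socs3 (0.968), Ccnq (0.966) and Ap1s3 (0.958). Epgn was most like Nfil3 (0.96), Ptgs2 (0.96) and Vcan (0.922), and Areg was most like the lymphocyte genes Klrg1 (0.919) and Cd2 (0.919) and Man2b2 (0.911). Tgfa was most like Gpld1 (0.987), Tlcd3a (0.985) and Cars (0.979). Ereg was most like Zfp317 (0.966), Pcdh11x (0.963) and Gm39090 (0.959). The highest value for Btc was with Dnah2 (0.973), for Egf with Cc2d2a (0.939), for Egfr with Hpdl (0.974), for Erbb3 with Eloa (0.985) and for Erbb2 with Nrbf2 (0.84).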

How the data were processed

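Ear RNA of 12 mice was sequenced after ribosomal RNA depletion with a stranded total RNA kit, as paired reads of 76 cycles. Reads were aligned to mm10 with STAR 2.5.2b and counted with featureCounts of Subread 1.5.1, and the strand setting and annotation release are not given in the sources used here. The authors deposited raw counts per Ensembl gene, without normalization, 1 column per mouse. They also deposited tables of their own comparisons (DESeq2 1.30.0 fold changes and p-values), of which only the other, non-numeric column of gene symbols was used: per the file headers it gave a symbol to 47020 of 50684 genes. Groups came from the sample titles, whose replicate labels do not say how the mice were handled beyond the group.

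Genes were filtered with filterByExpr (minimum count 10), scaled by TMM and tested with edgeR 4.0.16 (quasi-likelihood test, 1 mean per group, 1 fit of 12 libraries) in R 4.3.3. The common biological coefficient of variation was 14.2%. P-values were adjusted by Benjamini-Hochberg over 19408 genes. The fit was tested on simulated data. Positions and exon lengths were from GENCODE vM21 (GRCm38), and overlapping antisense genes cannot be separated if strand was not used. Totals of 25293468 to 34759293 counts limit the scarce genes Areg and Epgn, and intervals are those of the fit.

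Alternatives were other scalings, other filters, DESeq2 1.42.0, the 2 groups alone, no fold threshold, the replicate number as a block and each library left out in turn. Named genes are the 10 members, listed pathway genes called against PBS and the 3 most similar genes per member (prior count 2), and the lists' other genes are given as counts or as chosen after their values were seen. The members and lists were chosen with earlier results of these data known.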

Additional observations from a re-analysis of the deposited data

How the results depend on the processing

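The number of members called kept within 1.5 times its value in most alternatives, and no called change turned its direction. After IL-17A, 1 member was called, 2 without the fold threshold and 0 with the 2 groups alone, and leaving out a library gave 0 to 2. The 5 libraries without which none was called were PBS replicates 2 and 3, IL-17A replicates 1 and 2 and IL-36γ replicate 1. After IL-36γ, 4 were called, and 3 to 5 without a library. After the combination, 5 were called, 9 without the fold threshold and 4 to 6 without a library. Between the combination and IL-17A, 3 were called, 5 without the fold threshold and 1 to 3 without a library, the lowest without IL-17A replicate 2 or combination replicate 1 or 2. Between IL-36γ and IL-17A, 0 were called and 1 without the fold threshold, and 0 in each fit without a library. The combination against IL-36γ gave 0 in all alternatives. The interaction gave 0, and 1 (Hbegf) without the filter and with DESeq2, and 0 to 1 without a library. The cause of these shifts was not tested.

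Over all tested genes, IL-17A against PBS gave 407 calls, 9 with the 2 groups alone, 730 with DESeq2 and 11 (without PBS replicate 3) to 913 (without PBS replicate 1) without a library, and with 33 and 212 when IL-17A replicates 1 and 2 were left out and 142 for PBS replicate 2. IL-36γ against IL-17A gave 313 calls, 69 without IL-17A replicate 2 and 83 without IL-36γ replicate 2. The combination against IL-36γ gave 2 calls, 82 without the filter, 115 with DESeq2 and 0 to 62 without a library, the highest without IL-36γ replicate 2. The interaction gave 49 calls, 239 without the filter, 640 with DESeq2, 22 with size factors, 3 by library size, and 1 (without IL-36γ replicate 1) to 527 (without PBS replicate 1) without a library. Scaling by library size alone shifted the median change of all genes against PBS on the log2 scale from 0.04 to -0.13 (IL-17A), from -0.02 to -0.16 (IL-36γ) and from -0.03 to -0.17 (combination), and the higher and lower calls from 208 and 199 to 129 and 469, from 992 and 385 to 822 and 698, and from 1426 and 1177 to 1204 and 1667. After IL-36γ, Tgfa then missed the threshold (adjusted p = 0.0642), and Egf (0.0311) and Egfr (0.0195) passed it. The replicate numbers were not treated as pairs, since the labels give them no shared origin and not every pair of same-numbered libraries correlated above 0.1. Their deviations correlated between -0.199 and 0.352 (median 0.0968, 9 of 18 pairs above 0.1), against a median of -0.0502 and 9 of 36 pairs between different numbers, and 8 of 12 libraries were most like their own number, a hint from the data and not from the design. With the number as a block, the members called were 1, 4, 5, 3, 0, 0 and 0 in the 7 comparisons, as without it, Egf after IL-36γ passed the adjusted p-value (0.0375), and all genes called were 527 after IL-17A and 330 in the interaction. Depth limits Areg and Epgn, with at most 38 counts in a PBS library.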
